A study of Mus musculus with 12 samples.

Results

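The genes described here are the collagens, the laminins and the proteins bound to them in the basement membrane, measured by RNA-seq in brain endothelial cells of mouse embryos. The members were the protein-coding genes of the GENCODE vM21 annotation named as a collagen chain (Col, a number, a, a number) or a laminin chain (Lama, Lamb or Lamc and a number), together with Nid1, Nid2, Hspg2, Agrn, Fn1 and Sparc. This gave 61 genes of the 49315 in the files. A low-count filter left 49 of them, among 16637 genes in all, in the test between genotypes.

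The cells were endothelial cells sorted from the forebrain at E15.5 as positive for CD31 and negative for the pericyte marker CD140b, the leukocyte marker CD45 and a dead-cell dye. Wild-type (WT), Gpr124ΔC/ΔC and Gpr124-/- embryos gave 4 libraries each, and each library was 1 embryo. GPR124, encoded by Adgra2, is an adhesion G protein-coupled receptor that acts with RECK as a co-receptor for WNT7A and WNT7B in brain vessels. The ΔC allele places a V5 tag and a stop codon behind the last transmembrane segment, so that the receptor lacks its intracellular domain, and the null allele carries a lacZ reporter. In the paper, less ΔC than wild-type receptor was found on the surface of brain endothelial cells at E15.5, although its mRNA level was similar. In Gpr124ΔC/ΔC embryos, loss of the domain and a lower receptor level therefore cannot be told apart. Both alleles were present in every cell of the embryo rather than in endothelium alone, and both mutant groups were homozygous. The study asked which part of the signaling role of GPR124 needs the intracellular domain.

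The libraries held between 13877572 and 22551163 counts. Adgra2, the targeted gene, had 28.3 to 51.1 TPM (a level scaled by gene length and depth) in WT, 34.1 to 63.4 TPM in Gpr124ΔC/ΔC and 4.03 to 6.29 TPM in Gpr124-/- libraries. The 10 endothelial markers summed to 5496 to 6822 TPM in WT, 4925 to 7458 TPM in Gpr124ΔC/ΔC and 5864 to 7109 TPM in Gpr124-/- libraries. Other cell types left traces. The 7 erythroid markers summed to 6654 to 11200 TPM in WT, 5340 to 9647 TPM in Gpr124ΔC/ΔC and 17620 to 52530 TPM in Gpr124-/- libraries, and the 5 platelet markers to 231 to 455, 315 to 438 and 497 to 1435 TPM. The 10 pericyte markers, Pdgfrb (CD140b) among them, summed to 34.9 to 75.0, 20.0 to 40.6 and 39.0 to 47.0 TPM. The 9 macrophage markers summed to 4.20 to 11.8, 10.2 to 13.7 and 26.7 to 40.4 TPM, with P2ry12 contributing 8.8 to 40.1 TPM in the Gpr124-/- libraries, while the 5 smooth muscle markers stayed at 1.58 to 11.6 TPM and the 10 neuronal and progenitor markers at 73.3 to 173 TPM over all 12 libraries. The 10 fibroblast markers summed to 77.2 TPM in WT embryo 3 and to 6.69 to 14.2 TPM in the other 11 libraries. The part of these cells in the results was not tested, and in sorted bulk samples fewer cells of a type and less RNA per cell cannot be told apart.

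Embryos are numbered 1 to 4 within a genotype. Their label codes start with the letters J, J, K and L in WT, J, J, L and L in Gpr124ΔC/ΔC, and K, M, M and M in Gpr124-/- embryos, and the meaning of the letter is not stated. Because M held Gpr124-/- embryos alone, and no letter held both mutants, letter and genotype cannot be fully told apart. Mutants and WT could be compared within J and L for Gpr124ΔC/ΔC and within K, WT embryo 3 against Gpr124-/- embryo 1, for Gpr124-/-. These within-letter differences, on the log2 scale of depth-scaled counts (CPM), stand beside the results. With the letter as a term, the Gpr124-/- difference from WT rests on the same pair in K. Its WT embryo is the one with the high fibroblast marker sum. The M embryos add nothing to that difference because their letter has its own term. Within-K and letter-term values of Gpr124-/- against WT are therefore 1 comparison of 1 embryo with 1, not separate checks.

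The basement membrane is the thin sheet of matrix on which endothelial cells sit, and in brain capillaries it lies between endothelium, pericytes and astrocyte endfeet. Its frame is built from 2 networks. Laminins, trimers of an alpha, a beta and a gamma chain, assemble at the cell surface, and collagen IV trimers form a covalently linked net that gives the sheet its strength. Nidogens and the heparan sulfate proteoglycan perlecan (Hspg2) link the networks, agrin is a second proteoglycan of the sheet, collagens XV and XVIII sit at its interface with the stroma, and fibronectin and SPARC are matrix proteins that bind collagens. Endothelial cells make most of the vessel's laminins with the alpha chains Lama4 and Lama5, whereas Lama1 and Lama2 are better known from pial and astrocytic sheets.

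The RNA for these genes formed a larger part of the transcriptome in Gpr124-/- libraries than in WT. Summed over the 61 genes, the level was 11570 ± 1052 TPM in WT, 13310 ± 2694 TPM in Gpr124ΔC/ΔC and 17420 ± 2918 TPM in Gpr124-/- libraries (mean ± SD, n = 4 each). The sums ran from 10190 to 12620 TPM in WT and from 15100 to 21260 TPM in Gpr124-/- libraries, so these groups did not overlap, whereas the Gpr124ΔC/ΔC sums of 9756 to 15490 TPM overlapped both. Levels spanned a wide range between genes. Of the 61 members, 12 had a mean over 100 TPM across all libraries, 21 lay between 1 and 100 TPM, and 28 were under 1 TPM.

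A gene was called when its adjusted p was under 0.05 (edgeR quasi-likelihood test, Benjamini-Hochberg over all genes tested) and its absolute log2 fold change was over 1. In Gpr124-/- against WT, 12 of the 49 tested members were called higher and 4 lower. Over all genes tested, 5.67% were called higher and 4.21% lower in that comparison. In Gpr124ΔC/ΔC against WT, 1 member was called higher and 2 lower, beside 0.89% and 1.03% of all genes. The median log2 fold change over the tested members was 0.35 in Gpr124-/- and 0.16 in Gpr124ΔC/ΔC, against -0.01 and 0.01 over all genes. Between the mutants, 4 members were called higher and 1 lower in Gpr124-/- than in Gpr124ΔC/ΔC, beside 2.67% and 1.94% of all genes. With the label letter as a term these counts were 5 and 3 in Gpr124-/-, 2 and 3 in Gpr124ΔC/ΔC, and 0 and 0 between the mutants, where 6 members were higher and 4 lower at an unadjusted p under 0.05 and the lowest adjusted p was 0.154. For the letter fit, DESeq2 and limma, here and below, the share of all genes called is not given. A change in their counts among members therefore cannot be told apart from a change over all genes. The comparisons of each mutant with WT share the same 4 WT libraries.

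**Figure D1:**
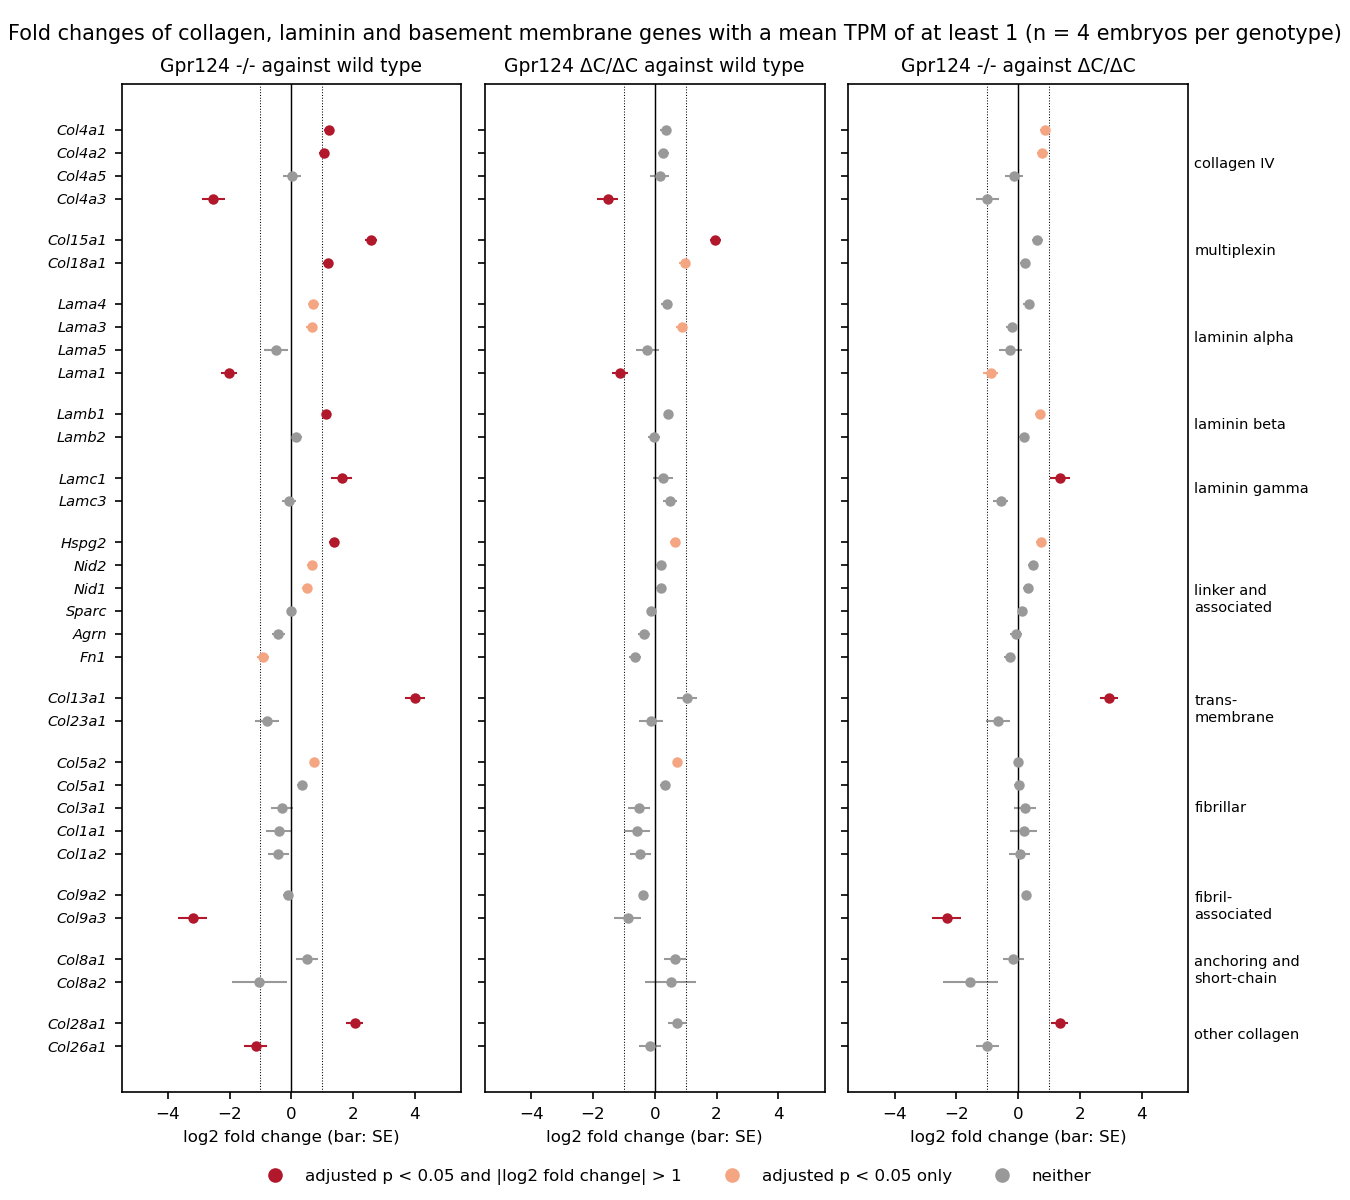
Log2 fold changes with standard errors (x axis) of the 33 tested genes with an average of 1 TPM or more, grouped by kind of protein (y axis), in 3 comparisons with 4 embryos per genotype. Red marks called genes, light orange those passing the adjusted p alone, and grey the rest, with dotted lines at -1 and 1. Of these genes, 9 were called higher and 4 lower in Gpr124-/- against WT, while in Gpr124ΔC/ΔC Col15a1 was called higher and Col4a3 and Lama1 lower.

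Collagen IV. The abundant pair, Col4a1 and Col4a2, which together form the usual trimer of vascular sheets, was higher in Gpr124-/- libraries, and the minor chain Col4a3 was lower in both mutants. Col4a1 (ENSMUSG00000031502, GRCm38 chr8:11198423-11312826, minus strand) and Col4a2 (ENSMUSG00000031503, chr8:11312805-11449287, plus strand) lie head to head, so that their annotated 5′ ends share 22 bases. Col4a2 starts on the strand printed here and Col4a1 on its reverse complement, and any link between the shared start and their levels was not tested. The shared bases are shown from the plus strand of GRCm38 at chr8:11312805-11312826:
Col4a1 and Col4a2 shared start: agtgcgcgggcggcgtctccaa
The targeted gene is on the same chromosome, with 15636296 bp between the end of Col4a2 and the start of Adgra2.

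Col4a1 stood at 1766, 1707, 1952 and 2197 TPM in WT embryos 1 to 4, at 1675, 2340, 3200 and 3173 TPM in Gpr124ΔC/ΔC, and at 3795, 3663, 5001 and 5724 TPM in Gpr124-/- embryos. Every Gpr124-/- embryo was above every other embryo, while the Gpr124ΔC/ΔC values ran from just below the WT range to above it. The log2 fold change was 1.22 ± 0.17 (SE) in Gpr124-/- against WT (adjusted p = 0.000276), a 2.33-fold rise, and 0.35 ± 0.17 in Gpr124ΔC/ΔC (adjusted p = 0.394). Between the mutants Col4a1 was 1.83-fold higher in Gpr124-/- (log2 0.87 ± 0.17, adjusted p = 0.00809), below the fold threshold.

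Col4a2 stood at 1167, 1041, 1230 and 1383 TPM in WT, at 1009, 1412, 1809 and 1995 TPM in Gpr124ΔC/ΔC, and at 2065, 2140, 2773 and 3305 TPM in Gpr124-/- embryos. It followed the order of Col4a1, with the Gpr124-/- values above all others. It rose 2.08-fold in Gpr124-/- (log2 1.06 ± 0.18, adjusted p = 0.000909), and its difference in Gpr124ΔC/ΔC was 0.27 ± 0.18 on the log2 scale (adjusted p = 0.573). The label letter as a term took both genes below the call in Gpr124-/-, to 0.91 for Col4a1 (adjusted p = 0.046) and 0.70 for Col4a2 (adjusted p = 0.141), and the difference between the mutants to 0.66 for Col4a1 (adjusted p = 0.450). The Gpr124-/- differences within letter K, 0.91 for Col4a1 and 0.70 for Col4a2, repeat the letter-term values because both rest on the same pair of embryos.

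Col4a3, a chain best known from the kidney glomerulus, was found at much lower levels, 2.25, 2.22, 2.09 and 2.81 TPM in WT, 0.571, 0.535, 1.12 and 1.27 TPM in Gpr124ΔC/ΔC and 0.555, 0.658, 0.291 and 0.181 TPM in Gpr124-/- embryos. Both mutants lay below WT without overlap. The log2 fold change was -2.53 ± 0.37 in Gpr124-/- (adjusted p = 0.000311) and -1.52 ± 0.35 in Gpr124ΔC/ΔC (adjusted p = 0.0250), and the difference between the mutants was -1.004 ± 0.37 (adjusted p = 0.119). These values rest on 11 to 184 counts per library, and 5.65% of the gene's exonic length overlaps a transcript on the other strand, C430014B12Rik, that the counting may not have separated. The Gpr124-/- call was lost with the letter term (log2 -1.95, adjusted p = 0.0833), and the Gpr124ΔC/ΔC call was lost when WT embryo 1, 2 or 4 or Gpr124ΔC/ΔC embryo 1 or 2 was left out (adjusted p = 0.0573 to 0.0793).

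Of the remaining chains, Col4a5 had a mean of 1.68 TPM and differed by 0.03 ± 0.29 and 0.16 ± 0.29 (log2) in Gpr124-/- and Gpr124ΔC/ΔC (adjusted p = 0.962 and 0.921). Col4a4 and Col4a6 were below the count filter. Col4a1 and Col4a2 made up 99.87% of all collagen IV TPM in WT, 99.93% in Gpr124ΔC/ΔC and 99.97% in Gpr124-/- libraries. The ratio of Col4a1 to Col4a2 was 1.58 ± 0.05 in WT, 1.67 ± 0.07 in Gpr124ΔC/ΔC and 1.77 ± 0.06 in Gpr124-/- (SD, n = 4). The Gpr124-/- ratios, 1.71 to 1.84, were above those of WT, 1.51 to 1.64, by a margin small beside the change in level.

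Multiplexins. The collagens XV and XVIII, which carry heparan or chondroitin sulfate chains and from whose ends the fragments restin and endostatin are released, were higher in both mutants. Col15a1 (ENSMUSG00000028339, GRCm38 chr4:47208161-47313167) was the single member called higher in Gpr124ΔC/ΔC. It stood at 18.4, 28.6, 17.6 and 17.3 TPM in WT, at 85.0, 87.4, 86.6 and 81.4 TPM in Gpr124ΔC/ΔC and at 120, 119, 129 and 144 TPM in Gpr124-/- embryos. The 3 genotypes did not overlap. WT embryo 2 was higher than the other WT embryos and still far below the mutants. The rise was 3.90-fold in Gpr124ΔC/ΔC (log2 1.96 ± 0.19, adjusted p = 8.76e-05) and 5.99-fold in Gpr124-/- (log2 2.58 ± 0.19, adjusted p = 1.48e-06). Gpr124-/- exceeded Gpr124ΔC/ΔC by 0.62 ± 0.18 (adjusted p = 0.0533), which missed the threshold. It passed in 6 of 21 alternatives, among them DESeq2 (adjusted p = 0.0225) and the fit without WT embryo 2 (adjusted p = 0.00407), and the letter term gave 0.454. Within letters the differences from WT were 1.85 in J and 2.16 in L for Gpr124ΔC/ΔC and 2.71 in K for Gpr124-/-.

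Col18a1 (ENSMUSG00000001435, chr10:77052178-77166548) was the more abundant of the pair, with 441, 502, 408 and 546 TPM in WT, 677, 930, 1226 and 1145 TPM in Gpr124ΔC/ΔC and 959, 888, 1218 and 1389 TPM in Gpr124-/- embryos. All 8 mutant embryos were above all 4 WT embryos, and the mutants overlapped each other. The rise was 1.95-fold in Gpr124ΔC/ΔC (log2 0.97 ± 0.17, adjusted p = 0.0052) and 2.28-fold in Gpr124-/- (log2 1.19 ± 0.17, adjusted p = 0.000292), and the mutants differed by 0.22 ± 0.17 (adjusted p = 0.464). The ratio of Col15a1 to Col18a1 TPM was 0.043 ± 0.010 in WT, 0.090 ± 0.026 in Gpr124ΔC/ΔC and 0.117 ± 0.015 in Gpr124-/- (SD, n = 4).

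Transmembrane collagens. These are single-pass membrane proteins with a collagenous ectodomain, and 3 of the 4 were called higher in Gpr124-/-, beside 5.67% of all genes. Col17a1 and Col25a1 were among them at means under 1 TPM. Genes this low can pass the count filter through the group where they are high, so this count is no test of the class. Limma, with a filter on mean TPM, tested 2 of the 4 and called 1. Col13a1 (ENSMUSG00000058806, chr10:61838236-61979108), a chain of adhesion sites and the neuromuscular junction, had the largest fold change of all members. It stood at 0.753, 0.830, 1.28 and 0.462 TPM in WT, at 1.27, 2.36, 1.94 and 1.78 TPM in Gpr124ΔC/ΔC and at 9.54, 16.1, 11.4 and 17.4 TPM in Gpr124-/- embryos. Gpr124-/- embryos were far above both other genotypes, and Gpr124ΔC/ΔC overlapped WT at its lowest embryo. The rise in Gpr124-/- was 16.0-fold against WT (log2 4.0 ± 0.32, adjusted p = 2.21e-06) and 7.73-fold against Gpr124ΔC/ΔC (log2 2.95 ± 0.30, adjusted p = 0.000191), the second of which was 1.48 with the letter term (adjusted p = 0.272). In Gpr124ΔC/ΔC the log2 difference from WT was 1.05 ± 0.31, with an adjusted p of 0.0937 that became 0.028 in DESeq2 and 0.00948 with the letter term. Within letters it was 0.86 in J and 1.39 in L, and the Gpr124-/- difference within K was 2.59.

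Col17a1, a hemidesmosomal collagen, and Col25a1, best known from neurons, were also called higher in Gpr124-/- at means of 0.410 and 0.204 TPM over all libraries. Col17a1 rose by 1.83 ± 0.55 (log2, adjusted p = 0.0335) on 3 to 33 counts per library and Col25a1 by 1.56 ± 0.32 (adjusted p = 0.00414) on 8 to 37 counts. Neither passed with the letter term (log2 1.14 and 1.21, adjusted p = 0.711 and 0.499), and Col13a1 was then the 1 transmembrane collagen called. The fourth, Col23a1, was at a mean of 4.45 TPM and differed by -0.78 ± 0.39 (adjusted p = 0.203). In Gpr124ΔC/ΔC none of the 4 passed the test in edgeR (adjusted p = 0.0937 to 0.958), although 2 had an unadjusted p under 0.05, and DESeq2 called 1, Col13a1, and limma 0 of the 2 it tested.

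The upstream sequences of Col15a1 and Col13a1 are shown because these genes had the largest rises among members with a mean of at least 1 TPM, and because each holds 1 copy of the letters CTTTGA, the core recognized by TCF/LEF factors of the WNT/β-catenin pathway, read here on the other strand as TCAAAG and printed in capitals. They are the 250 bases before the RefSeq gene start on GRCm38.p6, read 5′ to 3′ on the gene's strand. The Col15a1 sequence is chr4:47207762-47208011 on the plus strand, ends 149 bases ahead of the gene start in the files and has the motif's first base 130 bases before the RefSeq start. The Col13a1 sequence is chr10:61979109-61979358 on the minus strand, with the motif 214 bases before the start:
Col15a1: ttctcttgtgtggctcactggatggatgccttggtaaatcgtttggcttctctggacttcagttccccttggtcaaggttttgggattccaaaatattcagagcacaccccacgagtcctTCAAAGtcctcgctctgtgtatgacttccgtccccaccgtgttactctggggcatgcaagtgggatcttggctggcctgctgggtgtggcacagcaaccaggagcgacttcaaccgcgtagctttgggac
Col13a1: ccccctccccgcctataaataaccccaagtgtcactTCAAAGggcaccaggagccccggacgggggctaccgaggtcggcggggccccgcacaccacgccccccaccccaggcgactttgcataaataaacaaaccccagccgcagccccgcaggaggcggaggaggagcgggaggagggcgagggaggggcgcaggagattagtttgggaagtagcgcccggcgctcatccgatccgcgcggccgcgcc
The letters occur often by themselves. With both strands searched over the 250 bases before the start, 13.83% of all 32851 RefSeq promoter windows held them, as did 10 of 49 windows of the 44 matched members (20.41%) and 2 of 12 windows of members called higher in Gpr124-/- (16.67%). A match describes the letters and is not a binding site.

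Laminin alpha chains. The main endothelial chain Lama4 was higher in Gpr124-/- libraries, below the fold threshold, and Lama1 was lower in both mutants. Lama4 (ENSMUSG00000019846) stood at 186, 162, 216 and 242 TPM in WT, at 160, 271, 374 and 320 TPM in Gpr124ΔC/ΔC and at 318, 290, 377 and 372 TPM in Gpr124-/- embryos. The Gpr124-/- values lay above WT, and Gpr124ΔC/ΔC spanned both. The log2 difference from WT was 0.72 ± 0.17 in Gpr124-/- (adjusted p = 0.00909) and 0.38 ± 0.17 in Gpr124ΔC/ΔC (adjusted p = 0.319). With the letter term the first was 0.51 (adjusted p = 0.299), and without Gpr124ΔC/ΔC embryo 1 the second passed the test (log2 0.53, adjusted p = 0.0438).

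Lama1 (ENSMUSG00000032796, chr17:67697265-67822645) stood at 14.5, 13.9, 16.8 and 18.5 TPM in WT, at 4.59, 7.58, 11.3 and 7.77 TPM in Gpr124ΔC/ΔC and at 6.69, 3.41, 2.89 and 3.24 TPM in Gpr124-/- embryos. All mutant embryos were below all WT embryos, and Gpr124-/- embryo 1 was higher than the others of its group. In log2 units the gene fell by 2.02 ± 0.26 in Gpr124-/- (adjusted p = 0.000107) and by 1.13 ± 0.25 in Gpr124ΔC/ΔC (adjusted p = 0.0209). Within letters the differences were -1.30 in J, -1.08 in L and -1.35 in K. The Gpr124ΔC/ΔC difference had an adjusted p of 0.0527 to 0.0626 when WT embryo 4 or Gpr124ΔC/ΔC embryo 1, 2 or 4 was left out.

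Lama5, the other endothelial alpha chain, was low at this stage, with 9.30, 6.20, 6.19 and 6.37 TPM in WT, 6.37, 7.70, 2.75 and 8.03 TPM in Gpr124ΔC/ΔC and 10.2, 3.21, 3.70 and 3.70 TPM in Gpr124-/- embryos. The genotypes overlapped. Its log2 difference from WT was -0.49 ± 0.38 in Gpr124-/- (adjusted p = 0.435) and -0.24 ± 0.38 in Gpr124ΔC/ΔC (adjusted p = 0.898), and without Gpr124-/- embryo 1, which alone was above WT, the first became -1.01 (adjusted p = 0.0423). Lama3, a chain of epithelial laminins, passed the adjusted p in both mutants at a mean of 3.07 TPM, with 0.66 ± 0.18 in Gpr124-/- (adjusted p = 0.0187) and 0.87 ± 0.18 in Gpr124ΔC/ΔC (adjusted p = 0.0131). With the letter term the Gpr124-/- difference was 0.46 (adjusted p = 0.569) and that of Gpr124ΔC/ΔC 0.82 (adjusted p = 0.0126). Lama2 was at a mean of 0.149 TPM. As a share of the alpha chain TPM, Lama4 took 88.8% ± 0.95 in WT, 93.6% ± 1.4 in Gpr124ΔC/ΔC and 96.3% ± 1.5 in Gpr124-/-, while Lama1 took 7.07% ± 0.35, 2.61% ± 0.25 and 1.18% ± 0.56 (SD, n = 4).

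Laminin beta and gamma chains. Lamb1 and Lamc1, the chains of laminin 411, were called higher in Gpr124-/-, whereas Lamb2 was not. Lamb1 (ENSMUSG00000002900) stood at 90.8, 80.4, 95.6 and 102 TPM in WT, at 89.0, 132, 168 and 143 TPM in Gpr124ΔC/ΔC and at 173, 187, 220 and 250 TPM in Gpr124-/- embryos. Each Gpr124-/- embryo exceeded every embryo of the other genotypes. The rise was 2.19-fold (log2 1.13 ± 0.14, adjusted p = 0.000103), against 0.43 ± 0.14 in Gpr124ΔC/ΔC (adjusted p = 0.136) and 0.70 ± 0.14 between the mutants (adjusted p = 0.00896). Without Gpr124ΔC/ΔC embryo 1, the lowest of its group, the Gpr124ΔC/ΔC difference was 0.53 (adjusted p = 0.0462). With the letter term the Gpr124-/- difference from WT was 0.805 (adjusted p = 0.0486), under the fold threshold, and that between the mutants 0.43 (adjusted p = 0.728).

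Lamb2 stood at 78.0, 62.6, 88.2 and 97.7 TPM in WT, at 53.3, 80.7, 94.9 and 114 TPM in Gpr124ΔC/ΔC and at 85.3, 70.7, 97.9 and 119 TPM in Gpr124-/- embryos. These values overlapped throughout, with differences of 0.16 ± 0.19 (adjusted p = 0.620) and -0.02 ± 0.19 (adjusted p = 0.989) on the log2 scale. The ratio of Lamb1 to Lamb2 TPM was 1.15 ± 0.10 in WT, 1.58 ± 0.23 in Gpr124ΔC/ΔC and 2.25 ± 0.28 in Gpr124-/- (SD, n = 4). Lamb3 was below the count filter.

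Lamc1 (ENSMUSG00000026478, chr1:153218922-153332786), the gamma chain of nearly all vascular laminins, stood at 132, 120, 68.3 and 66.4 TPM in WT, at 155, 137, 107 and 92.9 TPM in Gpr124ΔC/ΔC and at 185, 258, 365 and 434 TPM in Gpr124-/- embryos. Gpr124-/- lay above both other genotypes. Within WT and Gpr124ΔC/ΔC the J embryos were higher than the K and L embryos. The log2 difference from WT was 1.63 ± 0.33 in Gpr124-/- (adjusted p = 0.00368) and 0.28 ± 0.33 in Gpr124ΔC/ΔC (adjusted p = 0.849), with 1.39 within K and 0.16 and 0.48 within J and L. The difference between the mutants was 1.35 ± 0.33 (adjusted p = 0.0233), and leaving out Gpr124ΔC/ΔC embryo 2, 3 or 4 or Gpr124-/- embryo 3 or 4 raised its adjusted p to 0.0576 to 0.0836, as did the letter term to 0.154. The minor chain Lamc3, at a mean of 2.41 TPM, did not pass the test in Gpr124-/- (adjusted p = 0.877) or Gpr124ΔC/ΔC (adjusted p = 0.386).

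**Figure D2:**
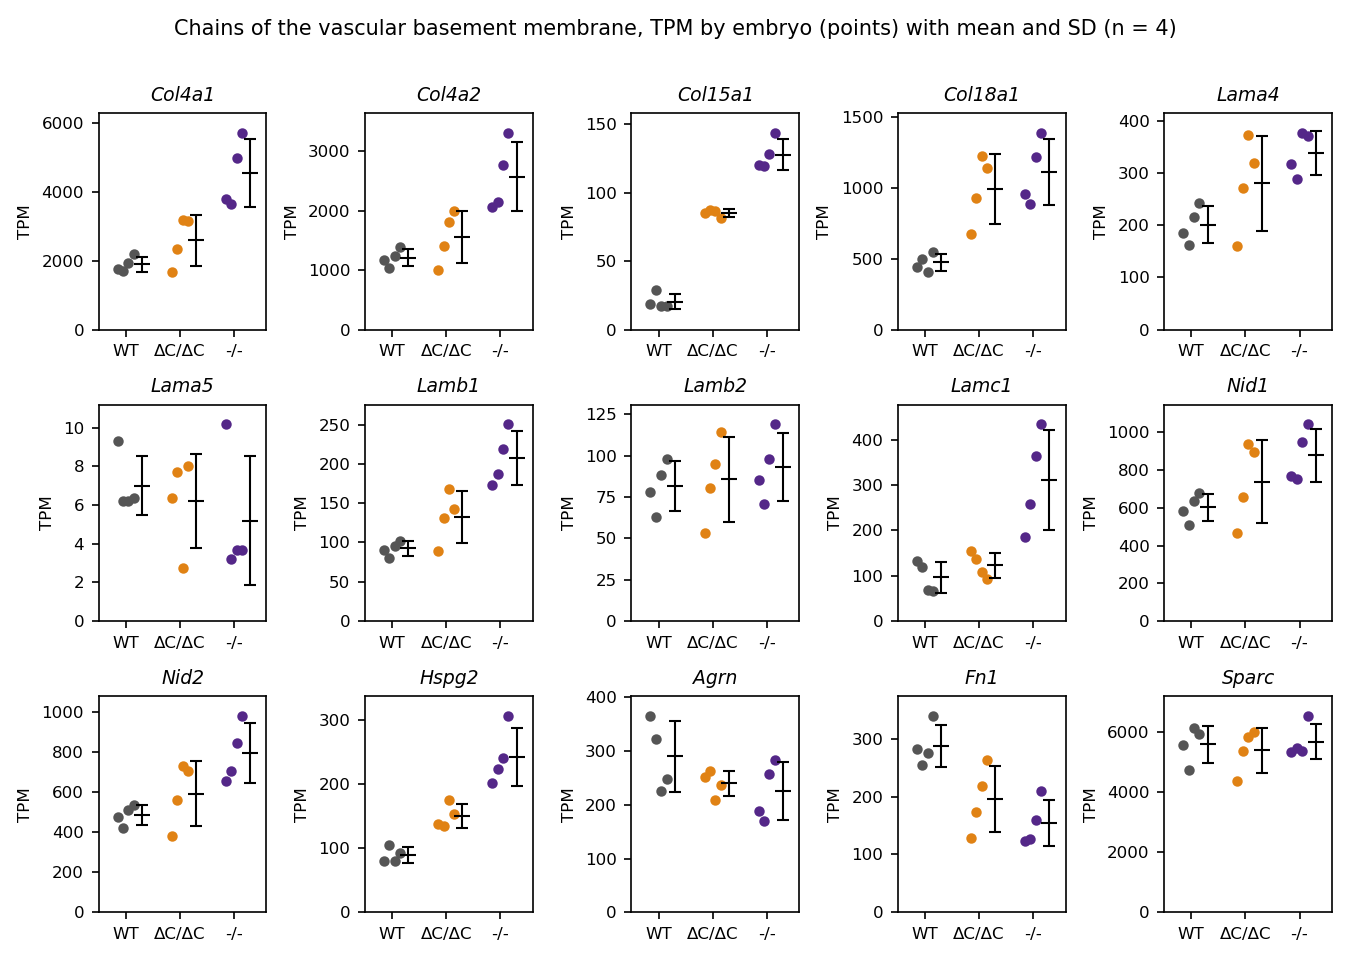
TPM (y axis) of the 15 chains of the vascular basement membrane in each embryo (points) of WT, Gpr124ΔC/ΔC (ΔC/ΔC) and Gpr124-/- (-/-) mice, with mean and SD (n = 4). Col15a1, at 17.3 to 28.6, 81.4 to 87.4 and 119 to 144 TPM, separates the 3 genotypes, Col4a1 and Lamb1 separate Gpr124-/- from the others, and Sparc overlaps throughout.

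Linkers and associated proteins. Perlecan rose in both mutants, the nidogens rose by less than the fold threshold in Gpr124-/-, and fibronectin fell. Hspg2 (ENSMUSG00000028763, chr4:137468769-137570630) stood at 80.1, 106, 80.1 and 92.8 TPM in WT, at 137, 134, 176 and 154 TPM in Gpr124ΔC/ΔC and at 202, 224, 240 and 306 TPM in Gpr124-/- embryos. The genotypes were stacked in that order without overlap. The rise was 1.58-fold in Gpr124ΔC/ΔC (log2 0.66 ± 0.16, adjusted p = 0.0352) and 2.62-fold in Gpr124-/- (log2 1.39 ± 0.16, adjusted p = 5.03e-05), and Gpr124-/- exceeded Gpr124ΔC/ΔC by 0.74 ± 0.16 (adjusted p = 0.0128), or 0.70 with the letter term (adjusted p = 0.473). The Gpr124ΔC/ΔC rise was close to the threshold: without WT embryo 1, 3 or 4, any 1 of the 4 Gpr124ΔC/ΔC embryos or Gpr124-/- embryo 2 or 3, its adjusted p was 0.0503 to 0.120. Within letters it was 0.51 in J and 0.72 in L.

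Nid1 stood at 585, 512, 634 and 681 TPM in WT, at 464, 659, 939 and 897 TPM in Gpr124ΔC/ΔC and at 769, 755, 947 and 1043 TPM in Gpr124-/- embryos. Nid2 stood at 478, 421, 513 and 536 TPM in WT, at 380, 558, 728 and 705 TPM in Gpr124ΔC/ΔC and at 653, 703, 843 and 980 TPM in Gpr124-/- embryos. Of its exonic length 7.9% overlaps Rtraf, a gene on the other strand that the counting may not have separated. Rtraf had a mean of 2703 counts, beside 18282 for Nid2. For both nidogens every Gpr124-/- embryo was above every WT embryo and the Gpr124ΔC/ΔC embryos spread over both ranges. The Gpr124-/- differences were 0.51 ± 0.16 for Nid1 (adjusted p = 0.0399) and 0.67 ± 0.16 for Nid2 (adjusted p = 0.00823) on the log2 scale, and those of Gpr124ΔC/ΔC were 0.20 ± 0.16 and 0.19 ± 0.16 (adjusted p = 0.699 and 0.718). Nid1 passed the test by a narrow margin, with an adjusted p of 0.0512 to 0.0965 when any 1 of the WT embryos or Gpr124-/- embryo 2, 3 or 4 was left out. Within letter K the differences were 0.23 for Nid1 and 0.30 for Nid2, and with the letter term neither passed (adjusted p = 0.723 and 0.611).

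Agrn stood at 365, 322, 225 and 247 TPM in WT, at 252, 263, 209 and 237 TPM in Gpr124ΔC/ΔC and at 189, 170, 258 and 282 TPM in Gpr124-/- embryos. Unlike those of Hspg2, the Agrn ranges overlapped between genotypes. Its log2 differences from WT were -0.42 ± 0.21 (adjusted p = 0.196) and -0.35 ± 0.21 (adjusted p = 0.524). Sparc, the most abundant member, stood at 5587, 4745, 6141 and 5945 TPM in WT, at 4364, 5376, 5827 and 6021 TPM in Gpr124ΔC/ΔC and at 5331, 5479, 5368 and 6549 TPM in Gpr124-/- embryos. Its differences were -0.01 ± 0.10 and -0.14 ± 0.10 (adjusted p = 0.948 and 0.639).

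Fn1 (ENSMUSG00000026193, chr1:71585520-71653200) stood at 282, 254, 275 and 340 TPM in WT, at 129, 174, 218 and 263 TPM in Gpr124ΔC/ΔC and at 123, 126, 160 and 210 TPM in Gpr124-/- embryos. All Gpr124-/- embryos were below WT, and the highest Gpr124ΔC/ΔC embryo reached the lower WT values. In Gpr124-/- embryos Fn1 fell by 0.93 ± 0.19 in log2 units (adjusted p = 0.00392), to 0.525 of the WT level, and the difference of -0.65 ± 0.19 in Gpr124ΔC/ΔC had an adjusted p of 0.0873, which was 0.0341 in DESeq2, 0.00649 with the letter term, 0.0374 without Gpr124ΔC/ΔC embryo 4 and 0.0259 without Gpr124-/- embryo 4. Within letters the differences were -0.89 in J, -0.61 in L and -1.21 in K.

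Ratios between members were also taken within each library. The ratio of Fn1 to Col4a1 TPM was 0.151 ± 0.0079 in WT, 0.0755 ± 0.0060 in Gpr124ΔC/ΔC and 0.0339 ± 0.0021 in Gpr124-/- (SD, n = 4), and the 3 ranges, 0.141 to 0.160, 0.0683 to 0.0827 and 0.0320 to 0.0366, were apart, although Fn1 and Col4a1 each varied more between embryos of a genotype than their ratio did. Sparc took 48.4% ± 1.9 of the summed TPM of the 61 genes in WT, 41.0% ± 3.1 in Gpr124ΔC/ΔC and 33.0% ± 3.2 in Gpr124-/-, whereas Col4a1 and Col4a2 together took 26.9% ± 1.1, 30.8% ± 2.7 and 40.6% ± 2.4. The ratio of Nid1 to Nid2 was 1.24 ± 0.025, 1.24 ± 0.050 and 1.11 ± 0.052. These ratios were not tested.

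**Figure D3:**
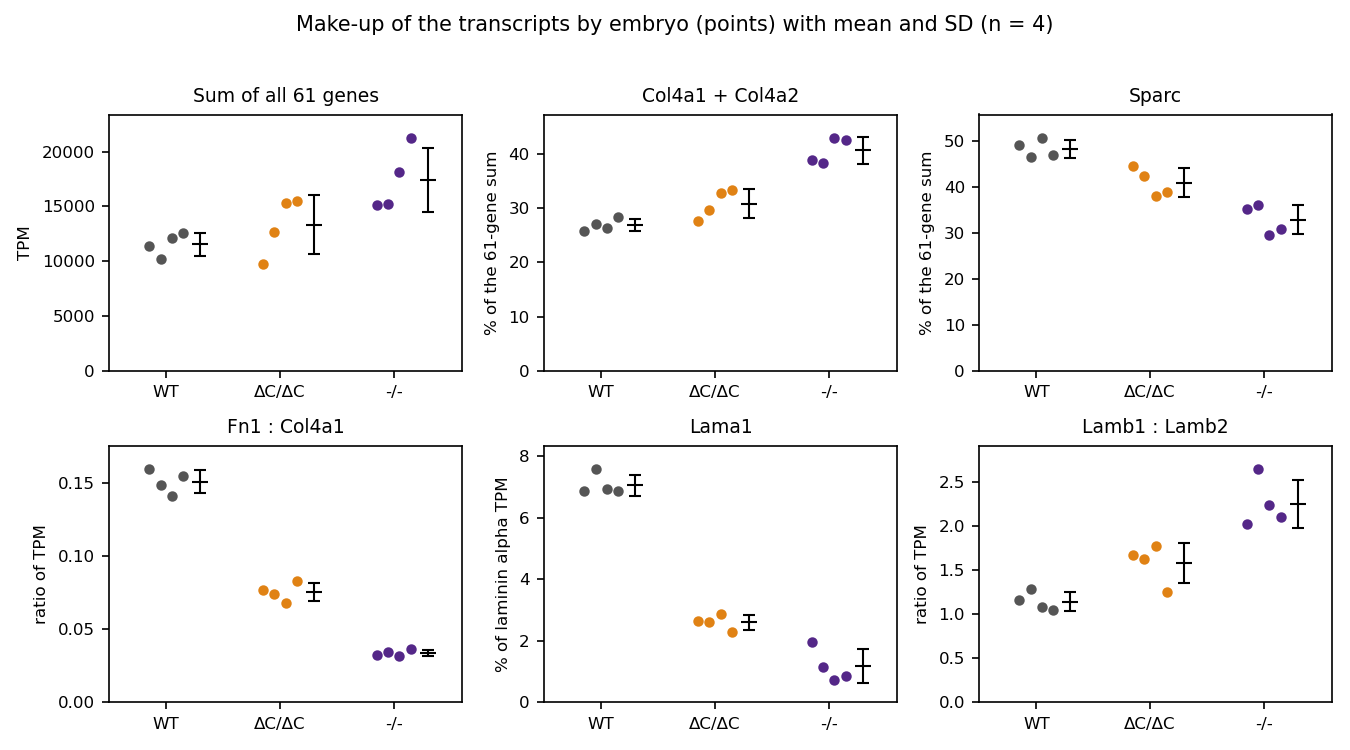
Make-up of the transcripts in each embryo (points), with mean and SD (n = 4), as summed TPM, percent or ratio of TPM (y axes). The Fn1 to Col4a1 ratio and the Lama1 share of alpha chain TPM are highest in WT (0.141 to 0.160 and 6.87% to 7.58%) and lowest in Gpr124-/- embryos (0.0320 to 0.0366 and 0.745% to 1.98%).

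Interstitial collagens. The fibril-forming collagens of connective tissue, chiefly made by fibroblasts, were mostly scarce, as were those of collagen VI. Col1a1, Col1a2 and Col3a1 had means of 1.31, 1.61 and 5.01 TPM over all libraries, and the 3 tested collagen VI chains 0.219 to 0.932 TPM. Each of these 6 genes was highest among WT in WT embryo 3, the embryo with 77.2 TPM of fibroblast markers. Col3a1, for example, was at 11.1 TPM there and at 2.85 to 5.11 TPM in the other WT embryos. Their log2 differences from WT ran from -0.56 to 0.42 in Gpr124-/- and from -1.07 to 0.21 in Gpr124ΔC/ΔC, and without that embryo from -0.05 to 1.05 and from -0.24 to 0.75. No adjusted p was under 0.05 for these 6 genes with or without it (edgeR, lowest adjusted p = 0.181). Without it 1 of the 6, Col6a2 in Gpr124ΔC/ΔC, had an unadjusted p under 0.05, with it 0 had. DESeq2 called 0 of the 6, and limma 0 of the 3 it tested. All 6 were lower in Gpr124-/- than in WT with the letter term, by log2 differences of -2.02 to -1.025, with 3 at an unadjusted p under 0.05 and 0 past the adjusted p. In that fit Gpr124-/- meets WT only in letter K, whose 1 WT embryo is this embryo 3.

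Col5a2, a chain of the fibril-nucleating collagen V, was by contrast expressed at 30.0 to 38.8 TPM in WT, 47.9 to 71.5 TPM in Gpr124ΔC/ΔC and 51.7 to 66.9 TPM in Gpr124-/- embryos. Both mutants were above WT, and their ranges overlapped. The log2 differences were 0.74 ± 0.11 in each mutant (adjusted p = 0.000386 in Gpr124-/- and 0.00193 in Gpr124ΔC/ΔC) and 0.01 ± 0.11 between them (adjusted p = 0.980). These were, with the letter term, 0.41 in Gpr124-/- (adjusted p = 0.270), 0.74 in Gpr124ΔC/ΔC (adjusted p = 0.000461) and -0.33 between them (adjusted p = 0.765). Its partner Col5a1, at a mean of 6.16 TPM, differed from WT by 0.35 ± 0.16 and 0.33 ± 0.17 (adjusted p = 0.166 and 0.403). Col27a1, a fibrillar chain of cartilage, was called higher in Gpr124-/- against WT (log2 1.76 ± 0.27, adjusted p = 0.000422) and against Gpr124ΔC/ΔC (1.08 ± 0.26, adjusted p = 0.0217) at 1.17 to 1.66 TPM, with 0.339 to 0.555 TPM in WT and 0.549 to 0.911 TPM in Gpr124ΔC/ΔC. Neither difference passed with the letter term (log2 1.03 and 0.12, adjusted p = 0.240 and 0.9925).

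Col9a3, a chain of cartilage collagen IX, gave the deepest fall. It stood at 13.9, 21.4, 18.7 and 17.2 TPM in WT, at 16.4, 11.4, 3.89 and 7.78 TPM in Gpr124ΔC/ΔC and at 1.98, 1.31, 1.18 and 3.53 TPM in Gpr124-/- embryos. Gpr124-/- lay below all other embryos, and the Gpr124ΔC/ΔC embryos ranged from the WT level to near the Gpr124-/- level, with those of letter L below those of J. The gene fell by 3.20 ± 0.48 on the log2 scale against WT (adjusted p = 0.000395) and by 2.32 ± 0.47 against Gpr124ΔC/ΔC (adjusted p = 0.00906, or 0.277 with the letter term), while Gpr124ΔC/ΔC differed from WT by -0.88 ± 0.43 (adjusted p = 0.391). Within letters the differences were -0.38 in J, -1.67 in L and -3.06 in K. Of the Col9a3 exonic length 6.07% overlaps Tcfl5 on the other strand, which had a mean of 2.2 counts beside 239.8 for Col9a3. Col9a2 stayed at a mean of 8.03 TPM (log2 -0.12 ± 0.15 in Gpr124-/-, adjusted p = 0.650), and Col9a1, which completes the trimer, was below the count filter.

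A pair of less studied collagens completed the called genes. Col28a1, a beaded collagen known from peripheral nerve, stood at 0.576, 0.467, 0.799 and 0.279 TPM in WT, at 0.928, 0.783, 0.866 and 1.09 TPM in Gpr124ΔC/ΔC and at 2.01, 2.33, 2.39 and 2.41 TPM in Gpr124-/- embryos. Gpr124-/- embryos were above all others. It rose 4.17-fold against WT (log2 2.06 ± 0.28, adjusted p = 0.000174) and 2.54-fold against Gpr124ΔC/ΔC (1.34 ± 0.27, adjusted p = 0.00863), on 9 to 85 counts per library, and with the letter term these were 1.28 (adjusted p = 0.205) and 0.25 (adjusted p = 0.984). Col26a1 stood at 3.31, 5.85, 5.82 and 3.12 TPM in WT, at 6.54, 2.43, 5.11 and 2.85 TPM in Gpr124ΔC/ΔC and at 2.41, 2.06, 1.503 and 2.47 TPM in Gpr124-/- embryos. Its call in Gpr124-/- (log2 -1.15 ± 0.37, adjusted p = 0.0434) was lost in 11 of 21 alternatives, with the letter term (adjusted p = 0.350), in the 3 limma fits, and when WT embryo 2 or 3, Gpr124ΔC/ΔC embryo 3 or any Gpr124-/- embryo was left out (adjusted p = 0.0539 to 0.121).

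**Figure D4:**
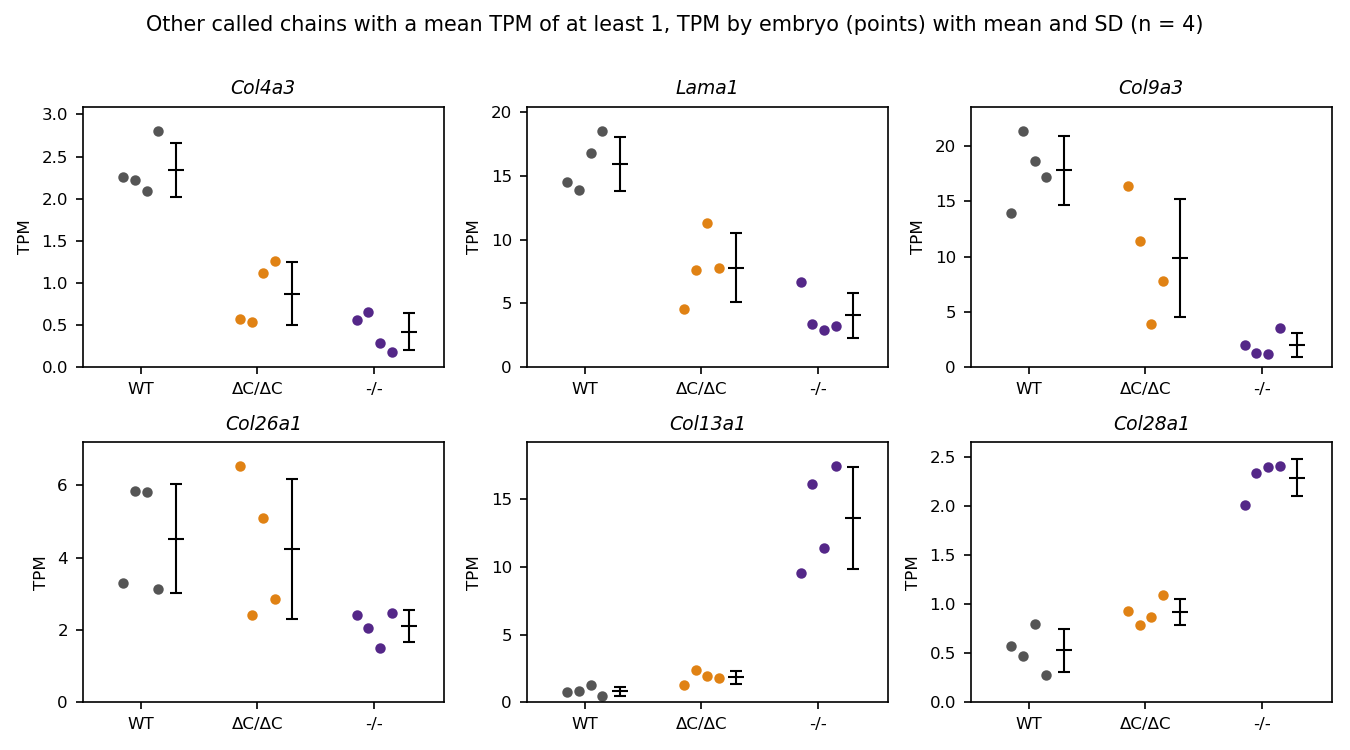
TPM (y axis) in each embryo (points), with mean and SD (n = 4), of the 6 other genes called at 1 TPM or more on average. Col4a3 and Lama1 are lower in both mutants than in WT, Col9a3 falls from 13.9 to 21.4 TPM in WT to 1.18 to 3.53 TPM in Gpr124-/-, and Col13a1 rises from 0.462 to 1.28 TPM to 9.54 to 17.4 TPM.

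The remaining tested members described here did not pass the test in any comparison. For one of them, Col14a1, a fibril-associated collagen at 0.784 to 1.59 TPM in WT and 0.162 to 0.608 TPM in Gpr124ΔC/ΔC embryos, the adjusted p in Gpr124ΔC/ΔC was 0.0659 in edgeR (log2 -1.60 ± 0.44), 0.0102 in DESeq2 and 0.0429 with the letter term. Among them Col12a1 shows the weight of 1 library, since it was at 3.52 TPM in Gpr124ΔC/ΔC embryo 3 and at 0.0502 to 0.364 TPM in the other 11 embryos (log2 2.47 ± 0.93 in Gpr124ΔC/ΔC, adjusted p = 0.208). Of the 12 members below the count filter, none exceeded 40 counts in any library. DESeq2, run without that filter, called 1 of those described here, the collagen V chain Col5a3, higher in Gpr124-/- than in WT (log2 2.58, adjusted p = 0.00808) and in Gpr124ΔC/ΔC (log2 2.35, adjusted p = 0.035), at 0.138 to 0.962 TPM beside 0.0224 to 0.133 and 0.0239 to 0.168 TPM. Col19a1 and Col6a5 had 0 of the 209846979 counts of all libraries, which allows up to 0.0143 CPM.

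Assembly of these proteins depends on enzymes and chaperones of the secretory pathway, and 33 such genes were listed. Of the 30 tested, 9 were called higher and 0 lower in Gpr124-/- against WT, beside 5.67% and 4.21% of all genes, and their median log2 fold change was 0.61. At an unadjusted p under 0.05, 18 were higher and 0 lower. DESeq2 called 11 and 0 of the 33 it tested and limma 7 and 0 of 26, and with the label letter as a term edgeR called 4 and 0 of 30. P4ha2, a catalytic subunit of prolyl 4-hydroxylase, stood at 0.367 to 0.604 TPM in WT, 0.547 to 1.15 TPM in Gpr124ΔC/ΔC and 1.75 to 4.72 TPM in Gpr124-/- embryos (log2 2.84 ± 0.33, adjusted p = 5.85e-05). Pcolce, which enhances cleavage of procollagen C-propeptides, rose by 1.88 ± 0.24 (adjusted p = 0.000132), and the prolyl 3-hydroxylases P3h3 and P3h2 by 1.65 ± 0.50 (adjusted p = 0.0355) and 1.59 ± 0.51 (adjusted p = 0.0463). None of these 4 passed with the letter term (adjusted p = 0.0823 to 0.443), and leaving out 1 embryo ended the test of P3h3 in 6 and of P3h2 in 9 of 12 cases. Among the abundant genes of the list, peroxidasin (Pxdn), which forms the sulfilimine bonds between collagen IV trimers, went from 74.1 to 92.6 TPM in WT to 151 to 208 TPM in Gpr124-/- (log2 1.099 ± 0.134, adjusted p = 7.79e-05), which the letter term took under the fold threshold (0.93, adjusted p = 0.0243), and in Gpr124ΔC/ΔC it was higher by 0.70 ± 0.13 (adjusted p = 0.00831). The collagen chaperone Serpinh1 (HSP47), at a mean of 2120 TPM, differed by 0.30 (adjusted p = 0.0965). In Gpr124ΔC/ΔC edgeR called 0 of the 30, beside 0.89% and 1.03% of all genes, with Pxdn alone past the adjusted p and 4 at an unadjusted p under 0.05, while DESeq2 called 1, limma 0 and edgeR with the letter term 2, with 4 past the adjusted p. Pxdn and Serpinh1 were named after their values were seen.

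Receptors that bind the sheet were listed as 22 genes, of which 21 were tested. In Gpr124-/- edgeR called 4 higher and 0 lower, beside 5.67% and 4.21% of all genes, with 9 and 2 at an unadjusted p under 0.05. DESeq2 called 5 and 0 of the 22 it tested, limma 3 and 0 of 19, and edgeR with the letter term 1 and 0 of 21. Integrin alpha 6 (Itga6), a laminin receptor chain, stood at 44.3 to 69.6 TPM in WT, 75.1 to 117 TPM in Gpr124ΔC/ΔC and 135 to 217 TPM in Gpr124-/- embryos (log2 1.48 ± 0.23, adjusted p = 0.000487). Its partner Itgb4 rose in both mutants, by 1.98 ± 0.28 in Gpr124-/- (adjusted p = 0.000241) and by 1.08 ± 0.28 in Gpr124ΔC/ΔC (adjusted p = 0.0471), where it was the single gene of the list called, beside 0.89% and 1.03% of all genes called higher and lower. This call was lost in 13 of 21 alternatives, among them limma (adjusted p = 0.116) and 10 of the 12 fits without 1 embryo (adjusted p = 0.0681 to 0.130), and held in DESeq2 (adjusted p = 0.0075) and with the letter term (adjusted p = 0.0143). Itgb3, an integrin chain of vessels and of platelets, rose by 2.12 ± 0.43 (adjusted p = 0.00356) to 34.6, 138, 117 and 171 TPM in Gpr124-/- embryos 1 to 4, whose platelet markers summed to 497, 1434, 1026 and 1435 TPM. The hyaluronan receptor Cd44 rose by 1.04 ± 0.33 (adjusted p = 0.0421), which 6 of the 12 fits without 1 embryo did not keep (adjusted p = 0.0742 to 0.1252). With the letter term Itga6 alone stayed past the threshold, and Itgb4, Itgb3 and Cd44 were at 1.16, 0.54 and 0.90 (adjusted p = 0.143 to 0.473). Itgb1, the common beta chain, was at a mean of 974 TPM and differed by 0.11 (adjusted p = 0.639), and was named after its value was seen.

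Other matrix genes were listed as 44, of which 39 were tested, and moved in both directions, with 9 called higher and 4 lower in Gpr124-/-, beside 5.67% and 4.21% of all genes. In Gpr124ΔC/ΔC 3 were called higher and 4 lower, beside 0.89% and 1.03%. With the letter term these counts were 5 and 7 in Gpr124-/- and 4 and 4 in Gpr124ΔC/ΔC, and between the mutants they went from 4 and 3, beside 2.67% and 1.94% of all genes, to 0 and 1. Spock2, a proteoglycan of the SPARC family abundant in brain, was at 384 to 539 TPM in WT, 117 to 253 TPM in Gpr124ΔC/ΔC and 21.1 to 54.1 TPM in Gpr124-/- embryos. The 3 ranges were apart, with log2 differences from WT of -3.74 ± 0.27 in Gpr124-/- (adjusted p = 1.12e-06) and -1.49 ± 0.24 in Gpr124ΔC/ΔC (adjusted p = 0.00323) and a difference of -2.25 ± 0.25 between the mutants (adjusted p = 0.000293). Frem1, of the Fraser complex that anchors epithelial sheets, fell by 3.24 ± 0.25 and 1.81 ± 0.23 (adjusted p = 1.95e-06 and 0.000671), and Egflam (pikachurin), a dystroglycan ligand, by 2.40 ± 0.19 and 1.19 ± 0.18 (adjusted p = 2.03e-06 and 0.00201). Smoc2, a SPARC-related protein, fell by 2.37 ± 0.37 and 2.01 ± 0.36 (adjusted p = 0.000537 and 0.00631).

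Among matrix genes that rose, thrombospondin 2 (Thbs2) was higher by 2.94 ± 0.34 in Gpr124-/- (adjusted p = 4.49e-05). In Gpr124ΔC/ΔC it differed by 1.298 ± 0.338, with an adjusted p of 0.0517 that became 0.00557 in DESeq2 and 0.0184 with the letter term. Thbs1 in Gpr124-/- was higher than in WT by 2.36 ± 0.42 (adjusted p = 0.0014) and than in Gpr124ΔC/ΔC by 1.85 ± 0.41 (adjusted p = 0.0146). Neither passed with the letter term (0.62 and 0.23, adjusted p = 0.263 and 0.952), and in limma the second had an adjusted p of 0.0522. Thbs1, which platelets also store, was at 112, 464, 405 and 539 TPM in Gpr124-/- embryos 1 to 4, beside the platelet marker sums given above for Itgb3. The fibrillin Fbn2 and the integrin ligand Tgfbi rose in both mutants, in Gpr124-/- by 2.18 ± 0.22 (adjusted p = 1.47e-05) and 1.33 ± 0.12 (adjusted p = 7.18e-06) and in Gpr124ΔC/ΔC by 1.59 ± 0.22 (adjusted p = 0.00104) and 1.55 ± 0.12 (adjusted p = 2.14e-05). Between the mutants their adjusted p was 0.106 and 0.292.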

How the data were processed

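RNA of FACS-purified brain endothelial cells was amplified from poly(A) ends with an ultra-low-input kit and sequenced. The authors deposited read counts per gene for each of the 12 libraries, unnormalized, and a table of TPM, obtained from the same counts by scaling for gene length and library total. The deposited notes name bcl2fastq 2.17 and the mm10 build. The aligner, the counter and its strand setting are not given in the sources used here. Amplification without molecular identifiers means that counts are not independent molecules. Total counts ranged from 13877572 to 22551163 per library.

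Gene IDs were matched to GENCODE vM21 (49056 of 49315 matched, 44858 with the same start and end). Counts were tested in edgeR 4.0.16 (R 4.3.3): filterByExpr by genotype (minimum count 10), TMM scaling, and a quasi-likelihood fit of genotype over all 12 libraries, with Benjamini-Hochberg adjustment over 16637 genes. TPM served for levels and ratios. Alternatives used DESeq2 1.42.0, limma 3.58.1 on log2(TPM + 1), other filters and scalings, the label letter, and each library left out. The scripts were tested on simulated data. Replicates of a genotype differed beyond sampling noise.

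Values by embryo were given for the called members with a mean of at least 1 TPM and for the 15 vascular chains, and from each of 3 further lists the called genes with the 4 largest changes and a mean of at least 1 TPM were named. The members, lists and tests were chosen with earlier results of these data known. Promoter sequences and starts came from RefSeq on GRCm38.p6, and 44 of 61 members had an entry. The values of 1 further member are not reported here. Member values belong to genes measured in the same libraries and are not independent.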

Additional observations from a re-analysis of the deposited data

Results flagged for a closer look

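Within genotypes, the highest embryo stood apart from the other 3 of its group by Dixon's criterion in 5 of 63 groups of 4, where chance flags about 1 in 20. These were Col15a1 in WT embryo 2 (28.6 TPM, others 17.3 to 18.4 TPM), Lama1 in Gpr124-/- embryo 1 (6.69 TPM, others 2.89 to 3.41 TPM), Lama5 in WT embryo 1 (9.30 TPM, others 6.19 to 6.37 TPM) and in Gpr124-/- embryo 1 (10.2 TPM, others 3.21 to 3.70 TPM), and Sparc in Gpr124-/- embryo 4 (6549 TPM, others 5331 to 5479 TPM). Gpr124-/- embryo 1 is the one Gpr124-/- embryo with label letter K.

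In the edgeR test of Gpr124-/- against Gpr124ΔC/ΔC, 4 genes named here with values by embryo were past both the adjusted p and the fold threshold, and Col4a1, Col4a2, Lamb1, Hspg2 and Lama1 passed the adjusted p alone (0.00809 to 0.0450). That of Lama1 was lost in 16 of 21 alternatives, 10 of them with 1 embryo left out (adjusted p = 0.0547 to 0.133). The log2 differences were -2.32 for Col9a3, 2.95 for Col13a1, 1.34 for Col28a1 and 1.35 for Lamc1. With the label letter as a term none of the 4 passed the test (adjusted p = 0.154 to 0.984), and in that fit the mutants meet only through WT embryos.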

How the results depend on the processing

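The count of members called higher in Gpr124-/- against WT was 12 of 49 and became 5 with the label letter as a term. In that fit Gpr124-/- meets WT only as Gpr124-/- embryo 1 against WT embryo 3. The count was 14 of the 59 tested in DESeq2 and 9 of the 33 in limma, which kept genes with a mean of at least 1 TPM. It was 17 without the fold threshold and 11 to 12 with any 1 embryo left out. The count called lower was 4 and ranged from 3 to 5 with an embryo left out. In Gpr124ΔC/ΔC against WT the 1 higher became 2 with the letter term, DESeq2 and limma (either pseudocount or no filter), 5 without the fold threshold and 1 to 3 with an embryo left out. The 2 lower became 0 in limma, with either pseudocount or no filter, and 0 to 3 with an embryo left out, and were 0 without WT embryo 4 or Gpr124ΔC/ΔC embryo 1 or 2. Between the mutants the 4 higher became 0 with the letter term (6 members at an unadjusted p under 0.05), 2 in limma with either pseudocount, 1 in limma without a filter, 8 without the fold threshold and 2 to 4 with an embryo left out, with 2 reached without Gpr124ΔC/ΔC embryo 2, 3 or 4 or Gpr124-/- embryo 4. The 1 lower became 0 with the letter term, 2 without the fold threshold and 1 to 2 with an embryo left out.

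Of 1320 refitted fold changes of the 21 members named by embryo, 1185 kept their sign and their side of the threshold, 90 lost significance, 17 gained it and 28 changed sign. Those that changed sign were not past the threshold before or after. With the letter term Lama5 became 0.671 against WT and 0.915 against Gpr124ΔC/ΔC in Gpr124-/-, Lamb2 -0.093 and -0.012, Agrn 0.086 and Sparc -0.123 against Gpr124ΔC/ΔC, and Col26a1 0.072 in Gpr124ΔC/ΔC. In all 3 limma fits Sparc became 0.021 in Gpr124-/- and Lamb2 0.037 in Gpr124ΔC/ΔC, which was 0.008 with upper-quartile factors. With 1 embryo left out, values ran from -0.095 to 0.035 for Sparc in Gpr124-/-, from -0.553 to 0.060 for Col26a1, from -0.358 to 0.014 for Lama5 and from -0.175 to 0.106 for Lamb2 in Gpr124ΔC/ΔC, and from -0.212 to 0.031 for Agrn between the mutants. The causes were not tested. No paired analysis was possible because the embryo numbers follow sample order and pair no embryos, and the label letter, shared by some embryos of different genotypes, was fitted as a term instead. Depth limits the 28 members under 1 TPM, of which 16 were tested.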
